A study of Homo sapiens with 6 samples.

Results

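The genes described here are 10 genes of the Notch pathway, measured by RNA sequencing in a thyroid cell line. They are the receptors NOTCH1, NOTCH2 and NOTCH3, the ligands JAG1, JAG2 and DLL1, and the target genes HES1, HES4, HEY1 and NRARP. They were picked by gene symbol, with no measured value in the rule, though earlier results of these data were known by then. All 10 were among the 22354 loci of the count table. HTori-3.1, spelled Htoris-3.1 in the labels, is described as a normal human thyroid line. The control group had 3 libraries, labelled wild type. The BMAL1 knockout group had 3 libraries of cells infected with lentivirus carrying Cas9 and an sgRNA to BMAL1, selected with puromycin and grown from selected single clones. Cells of both groups had been exposed to etoposide at 2 μM, a topoisomerase inhibitor used to induce senescence, for 24 h by the protocol and 12 h by the treatment field. Libraries without etoposide were not analysed here, and no source used here says whether the control cells received a virus or were cloned, so an effect of BMAL1 loss and a difference between clones cannot be told apart. Nothing in the labels says that replicates came from separate cultures, and the p-values then measure only the spread between these libraries.

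Notch receptors are membrane proteins that bind Jagged or Delta ligands on a neighbouring cell. Binding exposes the receptor to cleavage by ADAM proteases and then by gamma-secretase, and the freed intracellular part enters the nucleus, joins the DNA-binding protein RBPJ and a Mastermind coactivator, and switches on genes such as those of the HES and HEY repressors. The pathway is known for decisions of cell fate in many epithelia, including the endocrine glands.

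The targeted gene, BMAL1, was counted 304, 326 and 409 times in control replicates 1 to 3, and 764, 603 and 860 times in knockout replicates 1 to 3. Its transcript was higher, not lower, in all 3 libraries labelled BMAL1 knockout, with a log2 fold change of 0.58 (SE 0.11, adjusted p = 0.0204, edgeR). RNA counts do not show the protein, for which the protocol names a Western blot that is not among these data. NR1D1 and NR1D2, whose transcription BMAL1 is known to drive, were lower, with log2 fold changes of -1.25 (SE 0.14, adjusted p = 0.00146) and -0.78 (SE 0.10, adjusted p = 0.00233). They are from a list of 12 clock genes, 6 with a log2 fold change above 0 and 6 below, in which BMAL1 was called higher and NR1D1, NR1D2, PER3 (-0.49) and TEF (-0.51) lower. Among the genes of the list that were not called, known BMAL1 targets went both ways. Their log2 fold changes were 0.33 for PER2, 0.18 for CRY1, 0.14 for CRY2, 0.03 for DBP and -0.22 for PER1. When fits omitted a single library, the adjusted p of BMAL1 lay between 0.0168 and 0.113 and was under 0.05 in 2 of 6 cases, whereas NR1D1 and NR1D2 passed in all 6. Every direction given from here on is that of the libraries labelled BMAL1 knockout over the libraries labelled control.

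Total counts were 26893063, 27029060 and 28513703 in the control libraries and 43148059, 29860233 and 43563391 in the knockout libraries. Knockout replicate 1 stood apart from its group. Its counts differed from those of knockout replicates 2 and 3 by 31.1 and 45.0 times the variance of counting alone, per locus, and those of replicates 2 and 3 from each other by 7.43 times. Within the control group, replicate 3 differed from replicates 1 and 2 by 14.5 and 13.2 times, and these from each other by 5.41 times. Calls, and the log2 fold changes that moved most, are therefore also given without knockout replicate 1.

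At an adjusted p under 0.05, 0 of the 8 Notch genes that could be tested passed edgeR's quasi-likelihood test in either direction, where 2.51% of all 14860 loci tested did so (161 higher and 212 lower). The same fit had 3 of the 8 higher and 0 lower at an unadjusted p under 0.05, namely NOTCH3, JAG1 and NRARP, and 9.08% of all loci were higher by that rule. DESeq2 called 1 gene, JAG1, and limma-voom called 0. In counts at an unadjusted p under 0.05, DESeq2 had NOTCH3 and JAG1 higher, beside 6.06% of its 19440 loci, and limma-voom the 3 genes named for edgeR, beside 8.76% of its loci. JAG1 is the member whose difference came closest to the threshold. The log2 fold change was above 0 for 7 of the 8, as for 7762 of the 14860 loci tested, with a median of 0.14 beside 0.01; among the 7, NOTCH1 and HES4 turned sign in fits that omitted a library. DLL1 and HEY1 had too few counts for the test. In JAG1 and NRARP every knockout library had a higher CPM than every control library, as in 11.8% of all loci, and in NOTCH2 a lower one, as in 11.5%. In bulk RNA, fewer cells that express a gene and less of its RNA per cell cannot be told apart.

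**Figure D1:**
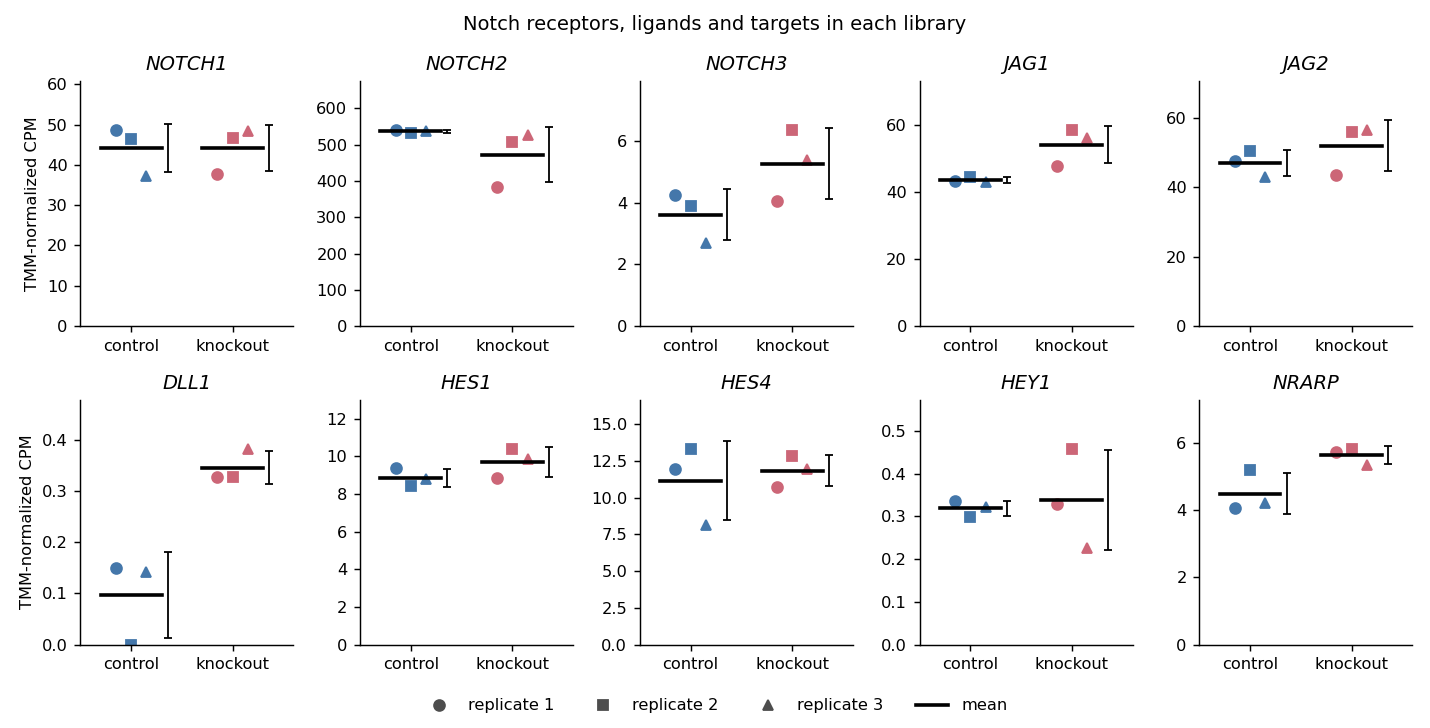
TMM-normalized CPM (vertical axes from 0) of the 10 Notch genes in the 3 libraries labelled control (blue) and the 3 labelled BMAL1 knockout (red). Symbols are replicates, black lines are means and bars are 1 SD to either side; the knockout libraries of JAG1, NRARP and DLL1 lie above the control libraries, and those of NOTCH2 below them.

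NOTCH1, the founding mammalian receptor of the family, lies on chromosome 9 of hg38 (136494433 to 136546048, reverse strand). Its level in CPM, read counts scaled to library size after TMM normalization, was 48.6, 46.4 and 37.4 in control replicates 1 to 3 and 37.7, 46.7 and 48.3 in knockout replicates 1 to 3. Control replicate 3 and knockout replicate 1 were low and the other 4 libraries close to one another, so the groups overlapped. The means were 44.1 ± 5.98 and 44.3 ± 5.71 CPM (SD, n = 3 each). The log2 fold change of NOTCH1 was 0.00 (95% interval -0.26 to 0.27, adjusted p = 0.991), an interval that still holds changes in both directions. Its sign turned with the library left out, from -0.10 without control replicate 3 to 0.11 without knockout replicate 1.

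NOTCH2, a receptor built like NOTCH1, lies on chromosome 1 (119911553 to 120100779, reverse strand) and took the most counts of the 10 genes. Control libraries held 541, 531 and 539 CPM, and knockout libraries 385, 507 and 526 CPM. The 3 knockout values were below all control values, by a wide gap in replicate 1 alone (two-sided exact permutation test, p = 0.1, the smallest that 3 against 3 libraries allow). The log2 fold change was -0.18 (SE 0.11, 95% interval -0.41 to 0.05, adjusted p = 0.407), and without knockout replicate 1 it was -0.06 (SE 0.05, adjusted p = 0.579). Partial copies of NOTCH2 are annotated as the human genes NOTCH2NLA, NOTCH2NLB, NOTCH2NLC and NOTCH2NLR. Only uniquely mapped reads were counted, so reads of near-identical exons may be missing from NOTCH2 or divided among the copies, and its level is uncertain for that reason. The copies were counted far less often, with 604 to 1031 reads per library for NOTCH2NLA beside 14209 to 23298 for NOTCH2.

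NOTCH3, the receptor best known from vascular smooth muscle, lies on chromosome 19 (15159038 to 15200995, reverse strand). It was low, at 4.25, 3.89 and 2.68 CPM in control libraries and 4.05, 6.35 and 5.37 CPM in knockout libraries, from 75 to 238 reads. Knockout replicates 2 and 3 were above all controls, and knockout replicate 1 fell among them. Its log2 fold change of 0.54 was the largest of the 8 (SE 0.21, 95% interval 0.08 to 1.00, adjusted p = 0.216). Leaving out each library in turn moved it between 0.37 and 0.70, with an adjusted p from 0.0831 to 0.508.

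JAG1 encodes Jagged1, a ligand held in the membrane of the sending cell, and lies on chromosome 20 (10637684 to 10673999, reverse strand). Control libraries had 43.2, 44.6 and 43.2 CPM, and knockout libraries 47.9, 58.6 and 56.2 CPM. All 3 knockout libraries were above all 3 controls, and the control values were close to one another. The means were 43.7 ± 0.781 and 54.3 ± 5.63 CPM (SD, n = 3 each; two-sided exact permutation test, p = 0.1), a ratio of 1.24. Its log2 fold change was 0.31 (SE 0.09, 95% interval 0.11 to 0.51, adjusted p = 0.1003, edgeR), which placed JAG1 at rank 753 of the 14860 loci by p. That missed the threshold of 0.05. The call depended on the fit. JAG1 had an adjusted p of 0.0105 without knockout replicate 1 (log2 fold change 0.39), where 1.95% of all loci tested were called higher, 0.0186 with the trend of each library with exon GC content removed (0.33), where 3.54% were called higher, and 0.0459 with DESeq2 (0.31), where 1.8% were called higher. Over its 16 alternatives the adjusted p ranged from 0.0105 to 0.347, and the log2 fold change from 0.25 to 0.39. An annotated RNA on the opposite strand, ENSG00000270792, overlaps exons of JAG1, and whether the counting used strand is not given in the sources used here.

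JAG2 encodes Jagged2, a ligand of the same family, and lies on chromosome 14 (105140982 to 105168824, reverse strand). The control libraries had 47.6, 50.5 and 43.0 CPM and the knockout libraries 43.5, 56.1 and 56.5 CPM. Knockout replicate 1 lay among the controls and the other 2 knockout libraries above them. The log2 fold change was 0.14 (SE 0.11, 95% interval -0.10 to 0.39, adjusted p = 0.549). It moved with the library omitted, from 0.08 (adjusted p = 0.787) without knockout replicate 3 to 0.26 (adjusted p = 0.0992) without knockout replicate 1. A long noncoding RNA on the same strand, ENSG00000257622, shares exon sequence with JAG2, and reads of the 2 cannot be told apart there.

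DLL1 encodes Delta-like 1, the Delta ligand among the members, and lies on chromosome 6 (170282206 to 170306565, reverse strand). It had 4, 0 and 4 counts in control libraries and 14, 10 and 17 in knockout libraries. Every knockout library held more than any control, in counts and in CPM (0 to 0.149 against 0.328 to 0.384). The pooled rates of 0.0970 and 0.352 CPM gave a ratio of 3.62, with an exact 95% interval of 1.68 to 8.95 that covers counting error only. Leaving out each library in turn gave ratios from 2.44 to 4.88. Without the low-count filter, edgeR gave DLL1 a log2 fold change of 1.79 (SE 0.77, adjusted p = 0.294). Exons of DLL1 overlap those of FAM120B on the opposite strand, which had 1087 to 1601 counts per library and a log2 fold change of -0.31 (SE 0.08, adjusted p = 0.0793). At this depth, a few reads of FAM120B assigned to DLL1 could not be recognised.

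HES1, the best studied of the HES repressors that Notch switches on, lies on chromosome 3 (194136148 to 194138732, forward strand). Control libraries had 9.36, 8.41 and 8.82 CPM and knockout libraries 8.85, 10.4 and 9.88 CPM. Only knockout replicate 1 lay within the control range. The log2 fold change was 0.13 (SE 0.12, 95% interval -0.13 to 0.39, adjusted p = 0.630), and ran from 0.08 without knockout replicate 2 to 0.19 without knockout replicate 1. HES4, a related repressor gene on chromosome 1 (998962 to 1000172, reverse strand), had 12.0, 13.3 and 8.14 CPM in control libraries and 10.7, 12.8 and 12.0 CPM in knockout libraries. The lowest and the highest value were both in control libraries. Its log2 fold change was 0.08 (SE 0.16, 95% interval -0.27 to 0.44, adjusted p = 0.846), -0.10 without control replicate 3 and 0.15 without knockout replicate 1.

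NRARP encodes a small ankyrin repeat protein that Notch induces and that dampens the signal in return, and it lies on chromosome 9 (137299631 to 137302271, reverse strand). It had 4.06, 5.20 and 4.21 CPM in control libraries and 5.74, 5.83 and 5.35 CPM in knockout libraries. The groups did not overlap, though control replicate 2 came close to the lowest knockout library (two-sided exact permutation test, p = 0.1). The log2 fold change was 0.33 (SE 0.15, 95% interval 0.00 to 0.65, adjusted p = 0.294), and leaving out each library gave 0.26 to 0.45. Its exons overlap an annotated RNA on the opposite strand, ENSG00000288234. HEY1, a target repressor known from the vessel wall, on chromosome 8, had 9, 8 and 9 counts in control libraries and 14, 14 and 10 in knockout libraries. These counts came from larger totals in the knockout libraries, and the CPM values of 0.335, 0.299 and 0.321 against 0.328, 0.459 and 0.226 overlapped. The ratio of pooled rates was 1.03 (exact 95% interval 0.611 to 1.77 for counting error), so a change of HEY1 was not detectable at this depth.

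**Figure D2:**
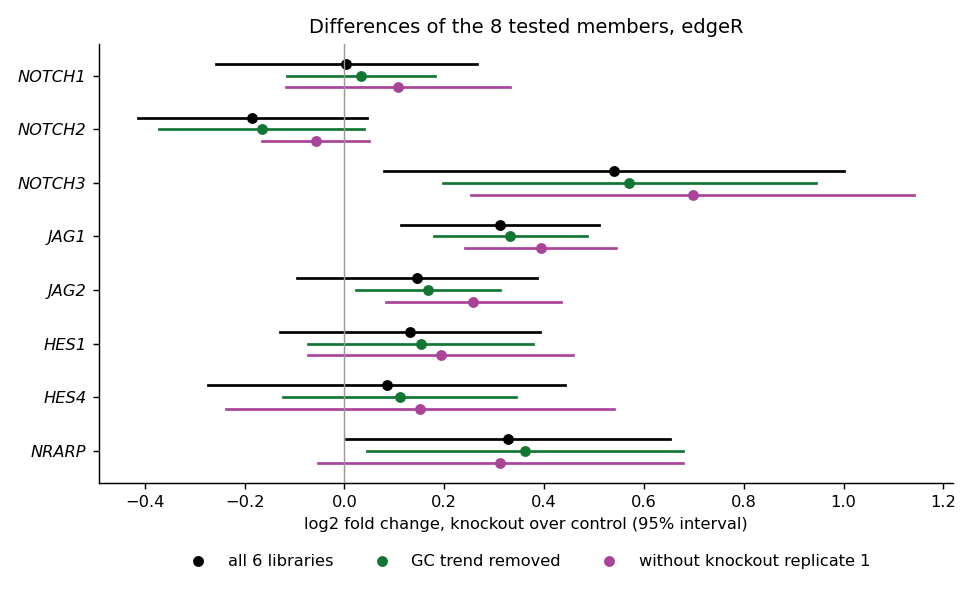
Log2 fold change (points) and 95% interval (lines) of the 8 tested Notch genes in edgeR's fit of all 6 libraries, with the GC trend of each library removed, and without knockout replicate 1. The interval of JAG1 is above 0 in the 3 fits, from 0.11 to 0.51 in the first, and that of NOTCH1 includes 0 in each.

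Promoter sequence is shown for the target genes because RBPJ, the DNA-binding partner of Notch, and the HES repressors are known for particular letters. RefSeq windows (GRCh38.p14) of 250 bases before to 50 after the start were found for 8 of the 10 members; DLL1 and HEY1 had no entry. The RefSeq start lay inside the GENCODE gene given above by 75 bases for HES4, 48 bases for JAG2 and 31117 bases for NOTCH2, and at its end for the other 5, so the windows of these 3 genes hold another start than the outermost one. On both strands, GTGGGAA, the core of RBPJ's motif, was in 2 of the 8 windows, those of HES1 and HES4, and in 6.25% of all 35116 windows. CACNAG, the N-box known for HES proteins, was in 5 of the 8, those of NOTCH1, NOTCH2, NOTCH3, HES1 and NRARP, and in 38% of all windows. CACGTG, the E-box known for BMAL1 and CLOCK, reads the same on both strands and was in 0 of the 8 windows and in 7.26% of all. The windows of JAG1 and JAG2 held none of the 3 motifs. No 2 matches of different motifs overlapped in the stretches printed. GTGGGAA began 85 bases before the start of HES1 and 77 bases before the RefSeq start of HES4, where it lies across the outer end of the GENCODE gene, on the strand of the gene in both, and 30 bases around it are given from chr3:194136052-194136081 (forward strand) and chr1:1000156-1000185 (reverse strand), with the match in capitals.
HES1: tgaaagttactGTGGGAAagaaagtttggg
HES4: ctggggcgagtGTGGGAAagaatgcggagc
The wider HES1 promoter, from 170 to 48 bases before the start (chr3:194135978-194136100, forward strand), held 3 matches of CACNAG beside the RBPJ core, 1 of them on the opposite strand and so read as CTNGTG. Capitals mark all 4 matches.
HES1 upstream: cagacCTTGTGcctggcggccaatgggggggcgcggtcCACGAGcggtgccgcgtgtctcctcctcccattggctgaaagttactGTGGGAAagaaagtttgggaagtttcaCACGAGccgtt
A match describes letters in a window and is neither a bound site nor a cause. HES1 and HES4, the members with the RBPJ core in these windows, had log2 fold changes of 0.13 and 0.08, beside 0.33 for NRARP, whose window had no RBPJ core.

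Levels were compared between genes only per kilobase (kb) of exon. The length was that of all annotated exons of a gene joined over its transcripts, which can exceed the length of any 1 transcript. For HEY1 these exons filled the whole gene, 5.487 kb, so its level per kb may be understated. The order of genes with near levels depends on this length. In control libraries NOTCH2 led with 32.1 ± 0.296 CPM per kb (SD, n = 3), followed by HES4 with 9.98 ± 2.41 and JAG2 with 7.35 ± 0.590. JAG1 with 4.70 ± 0.0840, HES1 with 4.30 ± 0.229 and NOTCH1 with 3.52 ± 0.477 CPM per kb formed the middle. NRARP with 1.70 ± 0.233 and NOTCH3 with 0.383 ± 0.0875 CPM per kb came next, and HEY1 and DLL1 were at 0.0581 ± 0.00334 and 0.0255 ± 0.0221. In the knockout libraries the first 8 places were in the same order, from NOTCH2 with 28.2 ± 4.58 to NOTCH3 with 0.559 ± 0.123 CPM per kb, and DLL1 at 0.0907 ± 0.00845 stood before HEY1 at 0.0615 ± 0.0213. Each of these 8 genes was above the next in all 6 libraries. The ranges of neighbours over all libraries overlapped for HES4 and JAG2 and for JAG1 and HES1, and HEY1 and DLL1 were in that order in 3 of 6 libraries. Among the members, NOTCH2 was thus the most abundant receptor transcript, and JAG2 and JAG1 were far above DLL1 of the 3 ligands.

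**Figure D3:**
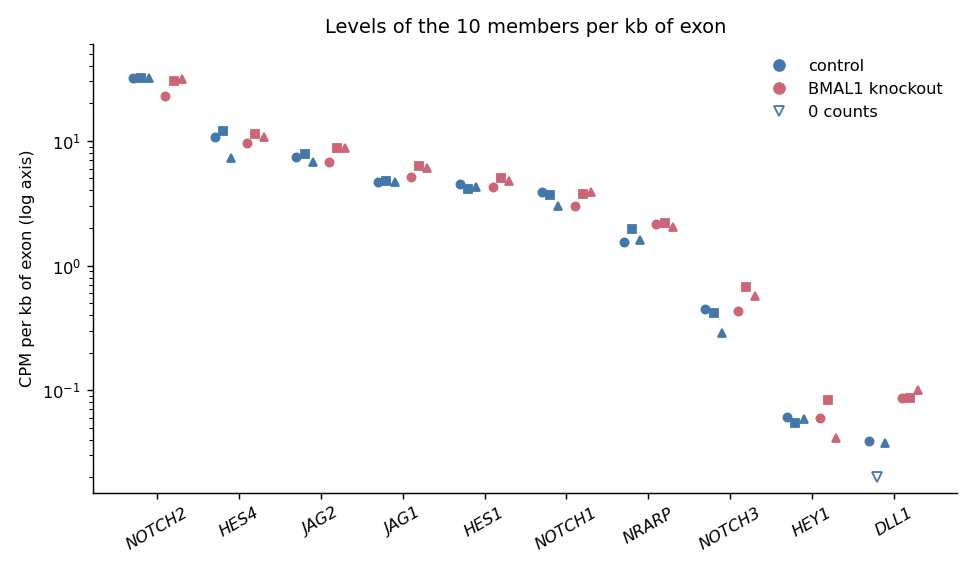
CPM per kb of exon (log axis) of the 10 Notch genes in each library, ordered by the control mean, with the control libraries in blue and those labelled BMAL1 knockout in red. NOTCH2 lies highest and HEY1 and DLL1 lowest; the open triangle marks the control library with 0 counts of DLL1, drawn below the lowest value.

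Control replicate 3 and knockout replicate 1 were low for several members. Exons of NOTCH1, NOTCH3, JAG2 and HES4 were 63.3%, 63.1%, 64.1% and 73.9% G or C, and these 2 libraries had the lowest value of their group for each of them. Knockout replicate 1 was the lowest knockout library in 7 of the 8 tested members, all but NRARP, and so also for NOTCH2, JAG1 and HES1 with 49.4%, 49.6% and 50.0% GC. Among 425 loci with at least 65% GC, the median log2 CPM lay 0.16 below the mean of the 6 libraries (-0.16) in control replicate 3 and 0.15 below it (-0.15) in knockout replicate 1, and between 0.07 and 0.11 above it in the other 4. Among 2250 loci under 40% GC the same 2 libraries were above the mean, by 0.08 and 0.17. With this trend removed from each library, an alternative set before the values were seen, control replicate 3 and knockout replicate 1 came closer to the rest of their groups for NOTCH1, NOTCH3, JAG2 and HES4, but not for every member. For NRARP, knockout replicate 1 became the highest library, at 6.25 CPM beside 5.69 and 5.19 CPM. NOTCH1 was then at 45.8, 43.6 and 41.0 CPM in control libraries and 41.7, 45.2 and 46.5 CPM in knockout libraries, and its SE fell from 0.12 to 0.07. JAG2 was at 44.7, 47.3 and 47.5 against 48.1, 54.2 and 54.3 CPM, and HES1 at 9.16, 8.33 and 8.88 against 9.17, 10.4 and 9.84 CPM. The 3 knockout libraries now lay above all controls for NOTCH3, JAG1, JAG2, HES1 and NRARP, 5 of the 8 genes, where 14.6% of all loci did so; for HES1 the gap was within rounding. The GC classes and these adjusted CPM values were added after the data were seen. NOTCH2 was at 397 CPM in knockout replicate 1 after the removal and at 505 and 524 CPM in the other 2 knockout libraries, and replicate 1 also stayed the lowest knockout library for NOTCH1, NOTCH3, JAG1, JAG2 and HES1. JAG1 passed the threshold in that fit, and the adjusted p of the other 7 lay between 0.0684 for NOTCH3 and 0.811 for NOTCH1.

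**Figure D4:**
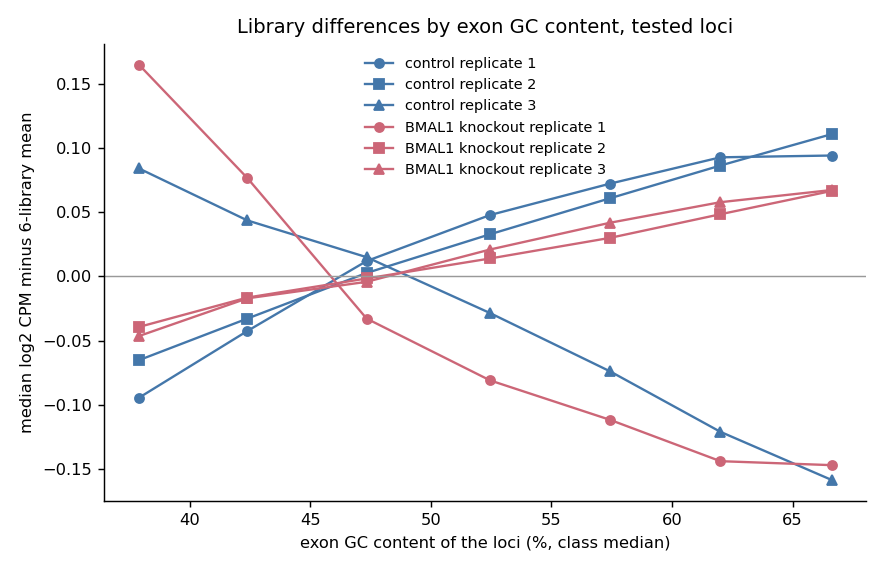
Median difference of log2 CPM from the 6-library mean (vertical axis) in 7 classes of exon GC content (horizontal axis, class median in percent), for the tested loci with a mean log2 CPM above 0, 1 line per library. Control replicate 3 and knockout replicate 1 fall from left to right, to -0.16 and -0.15 in the last class, and the other 4 libraries rise.

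Chromosomal surroundings were read from up to 20 tested protein-coding genes on each side of a member. The median log2 fold change of the neighbours was 0.12 for HES1 (29 of 40 higher), the same size as the 0.13 of HES1 itself, and 0.06 for JAG1 (23 of 40 higher), which was smaller than the 0.31 of JAG1. Around DLL1 it was -0.21 (22 of 24 lower), opposite to the higher counts of DLL1, and -0.22 with the GC trend removed. NRARP and HES4 had neighbours that were lower, with medians of -0.09 (23 of 30 lower) and -0.14 (20 of 25 lower), while both genes had log2 fold changes above 0. For NOTCH1, NOTCH2, NOTCH3 and JAG2 the medians were -0.08, 0.03, -0.05 and -0.05, and for HEY1 0.12. Removing the GC trend brought the medians around HEY1, JAG1 and NOTCH2 to 0.06, -0.00 and 0.00, and left those around HES1, NRARP and HES4 at 0.10, -0.06 and -0.11; those around NOTCH1, NOTCH3 and JAG2 became -0.05, -0.03 and -0.03. Copy number of these regions was not tested.

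Other genes of the pathway were read from lists by role, 72 genes of which 63 were tested. At an adjusted p under 0.05, edgeR had 0 higher and 1 lower, where 1.43% of all loci tested were lower. At an unadjusted p under 0.05, 8 of the 63 were higher and 5 lower, beside 9.08% and 7.78% of all loci, and the median log2 fold change was -0.01, beside 0.01. The gene called was NEDD4L, a ubiquitin ligase of the family that marks membrane proteins for removal, which fell from 128 ± 1.27 to 97.9 ± 0.499 CPM (SD, n = 3 each), a log2 fold change of -0.38 (SE 0.07, adjusted p = 0.0132, edgeR). NEDD4L passed in 3 of 6 cases when a library was left out; its adjusted p was 0.0670 without control replicate 1, 0.0854 without control replicate 2 and 0.0768 without knockout replicate 2. The neighbours of NEDD4L had a median of -0.12 (32 of 40 lower), and annotated RNAs on the opposite strand overlap its exons. In ligand endocytosis and in receptor glycosylation, 0 of 6 genes each were called. Among them the ubiquitin ligase MIB1, which activates ligands, had the highest level for its role at 9.39 CPM per kb, and NEURL1B the largest change, with a log2 fold change of 0.38 (SE 0.13, adjusted p = 0.145). POFUT1, which adds fucose to the receptors, stood at 29.8 CPM per kb. LFNG, the Fringe enzyme that lengthens this sugar, had a log2 fold change of 0.62 (SE 0.19, adjusted p = 0.108), with no overlap of the groups. Of the 63 genes, 9 had all knockout libraries above all controls and 5 had them below, beside 11.8% and 11.5% of all loci.

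Of the 9 tested genes of receptor cleavage, 0 were called. APH1A, a part of gamma-secretase, had the highest level at 30.7 CPM per kb, and PSEN2, one of its catalytic subunits, the largest change, with a log2 fold change of -0.37 (SE 0.15, adjusted p = 0.240). In the nuclear complex (7 tested) and among corepressors (13 tested), 0 were called. SNW1 and HDAC1 led these roles with 42.5 and 50.6 CPM per kb, and the largest change in the nuclear complex was that of the acetyltransferase KAT2B (0.28, SE 0.10, adjusted p = 0.173). Among 13 turnover genes ITCH had the highest level, 17.9 CPM per kb, and DTX4 the largest change, 0.52 (SE 0.14, adjusted p = 0.0834). Of the 8 other HES and HEY genes 3 were tested and 0 called, and the median of 0.62 is that of these 3 alone. Of the 5 not tested, HEY2 had 4, 4 and 5 counts against 5, 3 and 5, too few to read a direction from, and HES7 had a mean of 0.317 CPM in both groups. HES6 lay above all controls in CPM, as did 11.8% of all loci, without passing the test (4.39 ± 0.349 against 6.49 ± 1.33 CPM, log2 fold change 0.56, SE 0.17, adjusted p = 0.116). HEYL was at 1.34 ± 0.305 against 2.06 ± 0.286 CPM (0.62, SE 0.24, adjusted p = 0.210). No difference between this list and the other genes was tested. Of the other ligands DLK2 was the most abundant (1.47 CPM per kb; log2 fold change 0.20, SE 0.23, adjusted p = 0.709, from 0.06 to 0.41 with a library omitted), and of the NOTCH4 and NOTCH2-copy list NOTCH2NLA had the highest level (2.31 CPM per kb) and NOTCH2NLR the largest change (0.41, SE 0.25, adjusted p = 0.456, from 0.20 to 0.79 with a library omitted). NOTCH4 was counted 12 times in the control group and 41 times in the knockout group, a ratio of 2.42 after scaling to the totals (exact 95% interval 1.246 to 5.05 for counting error), and edgeR without the low-count filter gave an adjusted p of 0.506. DESeq2 also called DTX4, and edgeR with the GC trend removed called DTX4, HES6, LFNG and NEURL1B higher. Without knockout replicate 1, edgeR called AAK1, DTX4, HES6 and LFNG higher, where 1.95% of all loci tested were called higher, and NEDD4L lower. The log2 fold changes there were 0.61 for DTX4 (adjusted p = 0.0331) and 0.75 for LFNG (adjusted p = 0.0415). These calls were picked out after their values were seen.

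**Figure D5:**
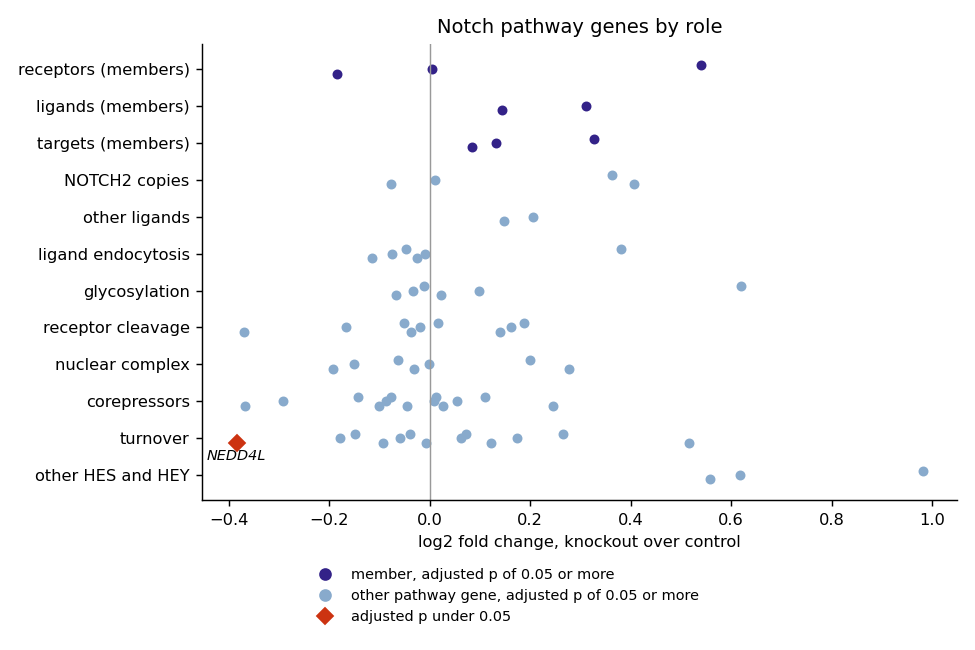
Log2 fold change (horizontal axis) of each tested Notch pathway gene, 1 row per role, with the 8 tested members in the first 3 rows and the other genes below. The red diamond is NEDD4L at -0.38, the gene with an adjusted p under 0.05; HES2, HES6 and HEYL in the last row lie between 0.56 and 0.98.

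Markers of cell identity were compared with the label of the line. Of 10 thyroid follicular markers, 2 had a mean of at least 1 CPM, PAX8 with 122 CPM and FOXE1, while NKX2-1 had 0 counts in every library and the means of TSHR and DUOX2 over all 6 libraries were under 0.1 CPM (DUOX2 at 0 in control and 0.114 CPM in knockout libraries). The summed level of that list was 173, 174 and 201 CPM in control libraries and 130, 150 and 173 CPM in knockout libraries. Of 6 epithelial markers 4 were above 1 CPM, led by KRT8 with 1282 CPM, and the sums were 2990, 3044 and 2897 against 2540, 2482 and 2563 CPM; KRT18, chosen after its values were seen, was lower at an adjusted p of 0.00583 (edgeR), and 3 of the 5 tested genes of the list had log2 fold changes above 0 (KRT7 0.10, KRT19 0.23 and EPCAM 1.57, none called). Fibroblast markers (2 of 6 above 1 CPM) were led by COL1A1 with 860 CPM, with DCN and LUM at 0, and summed to 922, 926 and 790 against 718, 935 and 989 CPM. Smooth muscle markers (2 of 5), led by TAGLN with 111 CPM, summed to 109, 101 and 108 against 117, 132 and 124 CPM. ACTA2, also chosen after its values were seen, was higher at an adjusted p of 0.0188 (edgeR). That call was kept in 2 of 6 cases when a library was left out. On the opposite strand, exons of FAS overlap those of ACTA2 (46 to 160 reads per library), and exons of KRT8 those of KRT18. Reads assigned across strands could not be recognised. Immune markers (1 of 6) were led by PTPRC with 4.38 CPM, CD3E being at 0, and summed to 6.82, 6.84 and 7.39 against 3.00, 3.11 and 3.81 CPM, with PTPRC lower at an adjusted p of 0.00127 (edgeR). CD14, the other immune gene tested, had a log2 fold change of 0.99 in the other direction (0.413 against 0.835 CPM, adjusted p = 0.318). Endothelial markers, known to come with NOTCH4, HEY1 and DLL4 in vessels, were led by VWF with 1.10 CPM and had PECAM1 at 0.170 CPM in control and 0.0294 CPM in knockout libraries; the list summed to 2.76, 2.32 and 2.61 against 1.59, 1.64 and 2.08 CPM. C cell and parathyroid markers had 0 of 5 genes above 1 CPM, were led by CHGA with 0.1502 CPM, had CALCA and PTH at 0 and summed to 0.164 to 0.422 CPM. The part of these differences in the values of the Notch genes was not tested.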

How the data were processed

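RNA of 6 libraries was sequenced as 150-bp paired reads. By their methods, the authors filtered the raw reads for adapters and base quality, mapped the remainder to hg38, for which fastp 0.20.1 is named, and counted uniquely mapped reads, for which HISAT2 2.0.4 is named. The deposited unit is whole-number read counts per gene, not normalized and not pooled; annotation and strandedness are not given in the sources used here. Columns were matched to samples by name. Total counts ranged from 26893063 to 43563391.

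From the counts, edgeR 4.0.16 (R 4.3.3; TMM, filterByExpr, robust quasi-likelihood fit, 2-sided test) was fitted to all loci, with Benjamini-Hochberg adjustment over the 14860 loci that passed the filter. Intervals use the total (residual and prior) degrees of freedom of the fit. GENCODE v44 gave positions, exon lengths and exon GC content (91.4% of tested loci), and RefSeq gave promoter windows. Alternatives were other normalizations and filters, a replicate block, removal of GC trends, thinning, DESeq2 1.42.0, limma-voom (limma 3.58.1), each library left out, and a fold change over 2 with an unadjusted p under 0.01. The scripts were tested on simulated data. Named besides the members were, per role list, genes called, the gene with the highest level per kb and that with the largest change (mean CPM of 1 or more), the clock genes BMAL1, NR1D1 and NR1D2, and the most abundant gene of each marker list; 1 gene that this rule would name is not reported here. Genes named outside this rule, such as other clock and marker genes, low-count genes, a gene overlapping DLL1 and calls under alternatives, were added after their values were seen. Members and lists were chosen with earlier results of these data known.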

Additional observations from a re-analysis of the deposited data

How the results depend on the processing

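With 3 libraries a group, an adjusted p above 0.05 does not show equal levels. DLL1, HEY1 and NOTCH4 were limited by depth. Of 128 log2 fold changes of the 8 tested Notch genes under alternatives, 124 kept their sign and 120 also their side of the threshold.

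Leaving out each library in turn, NOTCH1 ranged from -0.10 to 0.11 and HES4 from -0.10 to 0.23, both with changes of sign; fewer samples enter those fits. The count of Notch genes called higher was 0 to 1 over these fits, and 1 with the GC trend removed, with the replicate block and GC trend removal together, and with DESeq2, JAG1 each time. Among the other pathway genes, those higher numbered 4 with the GC trend removed, 3 with that and the block, 1 with DESeq2 and 0 to 4 with a library left out. Those lower numbered 3, 3, 2 and 0 to 1 in the same order, and 0 at a fold change over 2 with an unadjusted p under 0.01. The cause was not tested.

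The replicate block alone called 0 Notch genes and 0 other pathway genes lower, since the adjusted p of NEDD4L was 0.0503; over all loci it called 132 higher and 145 lower. Same-numbered libraries correlated at -0.33, 0.09 and -0.19 in their deviations from the group means, and control replicate 3 with knockout replicate 1 at 0.34. With 3 libraries a group, such correlations cannot show whether libraries of the same number shared a culture or batch. The labels give them only a number, and they were not treated as paired. Over all loci, calls numbered 161 higher and 212 lower (43.2% higher), 185 and 155 by library size only (54.4%), 526 and 592 with the GC trend removed, 399 and 496 with the block added, 256 and 379 with DESeq2, 94 and 48 at the fold change over 2, 293 and 340 without knockout replicate 1, and 46 and 67 without control replicate 2. The median log2 fold change of all loci was 0.04 by library size only and 0.01 in the main fit.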
